A study of Homo sapiens with 13 samples.

Results

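The genes described here carry glucose into the cell, split it to pyruvate and decide whether pyruvate becomes lactate or enters the mitochondrion. They were chosen by name, as a list of 34 genes by pathway step, with earlier results of these data known. Of the 34, 30 were analysed among 18404 genes in all. SLC16A1, SLC16A3 and PDP2 were not analysed here, and PGAM1 was named only on transcript clusters (the array's unit for a gene) that also carry the name PGAM4, so no value is given for it. The cells were SW480, an established human colon cancer line, kept for 6 h in 100 mM DFO (n = 4 arrays), 50 mM Deferasirox (n = 3), 10 mM OICR623 (n = 2) or 0.1% DMSO as the solvent control (n = 4). Doses stand as labelled, and nothing in the labels settles whether a smaller unit was meant. Deferasirox and DFO, also called deferoxamine, bind iron and are given to patients with iron overload, whereas for OICR623 the code name alone is used here. All groups share the line, the seeding overnight in 6-well plates and the exposure time. The replicates are described as biological and as independent experiments.

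Glucose enters by facilitative transporters, is trapped by hexokinase, committed by phosphofructokinase and cut by aldolase into trioses that yield ATP and pyruvate. Lactate dehydrogenase regenerates NAD+ by turning pyruvate into lactate, while the pyruvate dehydrogenase complex turns it into acetyl-CoA in the mitochondrion. Kinases of the PDK family switch that complex off and phosphatases of the PDP family switch it on again. Many of these genes are known targets of hypoxia-inducible factor (HIF), a transcription factor whose destruction needs prolyl hydroxylases that hold iron, and colon cancer cells are known for high glucose use.

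Values are log2 signals. The array medians fell into 3 levels: DMSO 1 and DFO 1 lay high (7.17 to 7.19), DMSO 4, DFO 4 and Deferasirox 3 low (6.52 to 6.55), and the other 8 arrays in the middle (6.64 to 6.69). Differences below come from limma with this level as a block, and a gene counts as called where its p, adjusted by Benjamini-Hochberg across the 18404 genes, is under 0.05. Without the block 0 of the 30 members were called under any compound by limma, although 5 of 30 under DFO, 4 under Deferasirox and 2 under OICR623 had an unadjusted p under 0.05, as had 1.1%, 1.67% and 0.565% of all genes. At the adjusted threshold that fit called 0.245%, 0.234% and 0.038% of all genes for the 3 compounds. DMSO 1 and DFO 1 held the same value, within 1e-06, in 8531 of 32321 rows, against 5 to 36 rows in pairs of middle arrays, 86 to 107 in pairs of low arrays and at most 1 in pairs from different levels. Among the members, TPI1, ENO3, PKM, PDK3 and PDHB were equal on these 2 arrays, so their difference in the high level is 0. The part of these equal values in the DFO results was not tested, and values without these 2 arrays are given below. As a check of the cell label, the epithelial keratin genes KRT8 and KRT18 lay at percentiles 99.3 and 99.7 of all gene signals and the leukocyte gene PTPRC at percentile 1.97. Of 12 epithelial markers 5 lay above the median gene, while the defining genes CDH1, KRT20, CDH17 and CEACAM5 lay at or below percentile 20.7. Above that median were also 1 of 7 fibroblast, 0 of 4 endothelial, 1 of 5 leukocyte, 1 of 3 skeletal muscle (ACTA1) and 0 of 1 erythrocyte markers. Under DFO and Deferasirox KRT19 differed by 0.35 and 0.33 and CDX2 by -0.49 and -0.77, all called, and their part in the results below was not tested. In such bulk RNA, fewer cells of a type and less RNA per cell cannot be told apart. Values of 1 gene are listed below in the order of the replicate numbers.

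Uptake and a few isozymes moved, and the bulk of the pathway did not pass the test. Under DFO, 7 of the 30 members rose and 2 fell, or 30% of the members, while 4.6% of all genes were called (1.89% higher and 2.72% lower). Under Deferasirox 9 rose and 1 fell, against 5.84% of all genes called (2.83% higher and 3% lower). Under OICR623 4 rose and 0 fell, with 0.734% of all genes called (0.337% higher and 0.397% lower). The median difference of the members was 0.06 under DFO, 0.07 under Deferasirox and 0.05 under OICR623, beside 0.00 for all genes in each comparison. Without the block these medians were 0.06, -0.04 and -0.03 for the members, beside 0.00, -0.15 and -0.11 for all genes. SLC2A1, SLC2A3, ENO2 and PDK1 were the 4 members called under all 3 compounds, HK2, PFKP and PGK1 were called under DFO and Deferasirox, and HK1 and PFKL under Deferasirox alone. PDP1 fell under DFO and Deferasirox and PDK4 under DFO. The other 19 were called under none. Because all 3 compounds share the same DMSO arrays, these lists are not independent of each other. The members were also chosen with earlier results of these data known, so their shares beside all genes are descriptive only.

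**Figure D1:**
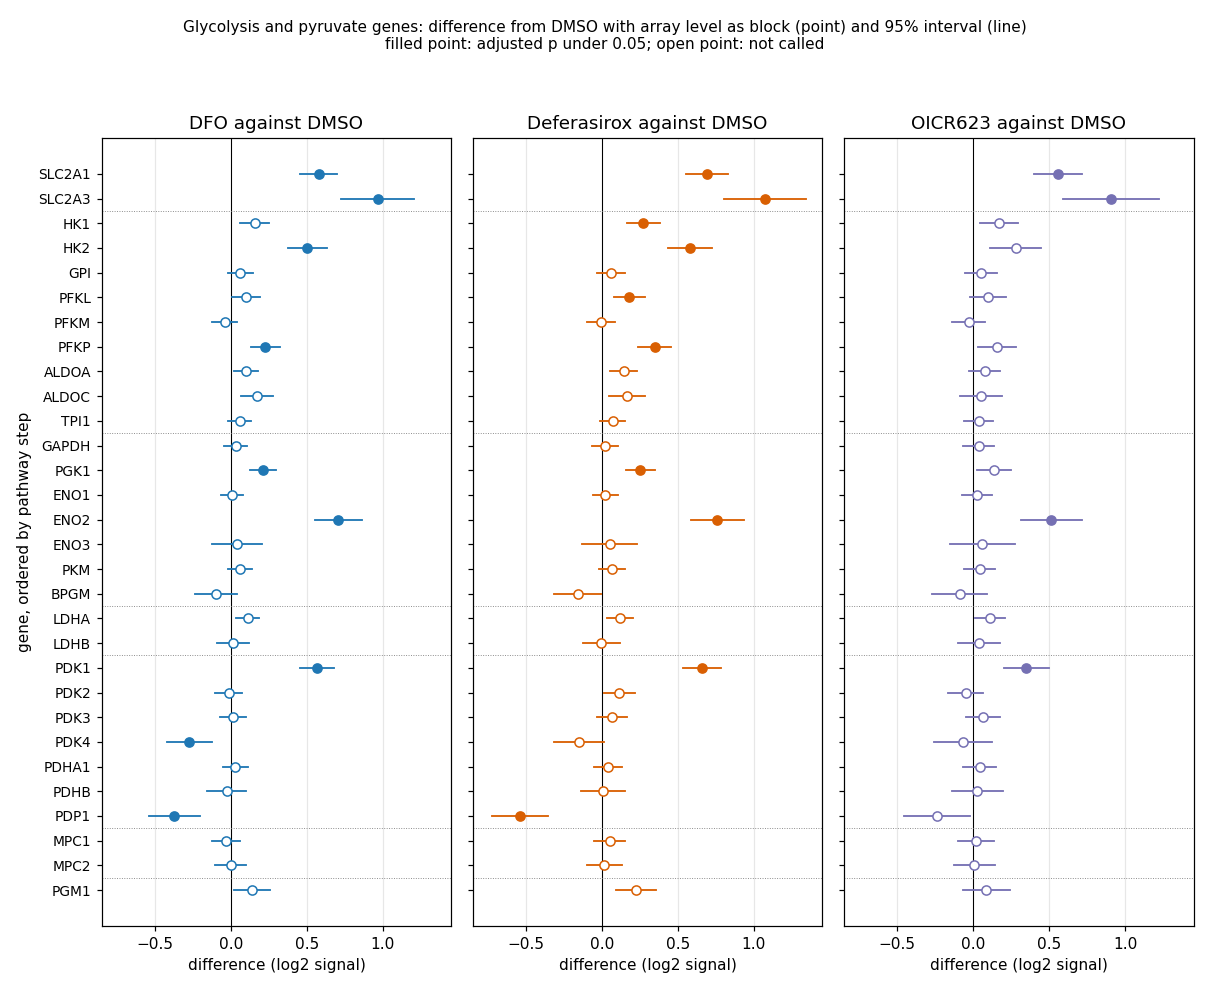
Difference from DMSO in log2 signal (horizontal axis) for the 30 members in pathway order (vertical axis), with the level as a block, for DFO, Deferasirox and OICR623. Points are estimates, lines 95% intervals, and filled points are called; SLC2A3 lies farthest right under each compound, at 0.97, 1.07 and 0.91, while most open points sit near 0.

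The 250 bases before the start sites of ENO2, PDK1 and SLC2A1 are shown because these genes moved under all 3 compounds, and those of ENO1 because this isozyme of ENO2 was called under none (RefSeq, GRCh38.p14). SLC2A3 is named only. Capitals mark ACGTG or GCGTG, which are forms of the core that HIF binds, on either strand, so that a match on the other strand reads CACGT or CACGC.
ENO2, chr12:6914330-6914579, plus strand: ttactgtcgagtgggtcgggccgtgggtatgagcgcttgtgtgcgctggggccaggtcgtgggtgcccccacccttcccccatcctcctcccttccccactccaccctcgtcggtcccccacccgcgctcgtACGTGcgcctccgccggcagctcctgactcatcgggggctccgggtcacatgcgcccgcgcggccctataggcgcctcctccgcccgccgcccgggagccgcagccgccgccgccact
PDK1, chr2:172555840-172556089, plus strand: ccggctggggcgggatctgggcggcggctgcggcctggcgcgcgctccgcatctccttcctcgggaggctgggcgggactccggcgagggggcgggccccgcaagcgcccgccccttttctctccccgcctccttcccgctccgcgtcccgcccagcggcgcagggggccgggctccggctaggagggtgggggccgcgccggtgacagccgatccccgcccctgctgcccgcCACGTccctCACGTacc
SLC2A1, chr1:42958869-42959118, minus strand: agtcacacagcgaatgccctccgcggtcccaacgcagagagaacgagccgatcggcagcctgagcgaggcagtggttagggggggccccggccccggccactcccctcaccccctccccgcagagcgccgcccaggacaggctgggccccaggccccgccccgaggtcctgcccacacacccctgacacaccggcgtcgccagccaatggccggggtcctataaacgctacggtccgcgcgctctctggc
ENO1, chr1:8878687-8878936, minus strand: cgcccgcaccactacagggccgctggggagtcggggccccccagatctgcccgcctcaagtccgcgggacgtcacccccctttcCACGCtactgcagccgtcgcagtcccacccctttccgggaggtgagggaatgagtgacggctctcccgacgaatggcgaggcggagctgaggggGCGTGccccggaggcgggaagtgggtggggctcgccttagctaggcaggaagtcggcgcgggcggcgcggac
The ENO2 window held 1 ACGTG, 118 to 114 bases before the start. The PDK1 window shown, the second listed for that gene, held 2 within 17 bases of the start, and the first listed held 0. SLC2A1 had 0 of both, and ENO1 held 2 copies of GCGTG. Of all 35116 such windows, 18.5% held ACGTG, 32.2% GCGTG and 43.2% at least 1 of them. Taking the first window listed per gene, 4 of the 8 members called higher that have one held either motif, as did 12 of the 19 not called, and PDK1 counts there as having none. Over all windows of a gene, a count added after seeing the data and with several windows for some genes, the numbers were 7 of 8 and 16 of 19, beside 47.4% of all genes. The motif CACGTG, which contains ACGTG, was in 6.3% of all windows, in 0 of the first windows of those 8 and in 4 of those 19, and over all windows in 1 (HK2) and 6. These are matches of letters in short windows and say nothing about binding.

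Both glucose transporters rose under each compound. SLC2A1 encodes GLUT1, the transporter most cancer cells rely on (transcript cluster 7915472, chromosome 1). Its log2 signal was 13.89, 13.76, 13.74 and 13.52 in DFO, 13.83, 13.82 and 13.58 in Deferasirox, 13.72 and 13.65 in OICR623, and 13.56, 13.06, 13.06 and 12.92 in DMSO. All arrays of Deferasirox and OICR623 lay above the highest DMSO array, and the DFO arrays overlapped with DMSO only through the low DFO 4 and the high DMSO 1. The difference was 0.58 (SE 0.06, adjusted p = 1.2e-04) under DFO, 0.69 (SE 0.06, adjusted p = 9.2e-05) under Deferasirox and 0.56 (SE 0.07, adjusted p = 0.0053) under OICR623, or 1.49-, 1.61- and 1.47-fold. SLC2A3 encodes GLUT3, a transporter of high affinity best known from neurons (transcript cluster 7960865, chromosome 12). Its log2 signal was 13.70, 13.22, 13.23 and 12.94 in DFO, 13.28, 13.24 and 12.95 in Deferasirox, 13.14 and 13.03 in OICR623, and 13.23, 12.26, 11.91 and 11.81 in DMSO. Within the middle and low levels every treated array was above every DMSO array, and DMSO 1 alone reached the treated range. The difference was 0.97 (SE 0.11, adjusted p = 3.8e-04) under DFO, 1.07 (SE 0.12, adjusted p = 4.1e-04) under Deferasirox and 0.91 (SE 0.14, adjusted p = 0.016) under OICR623, which made it the member with the highest estimate for each compound. Under DFO it was 0.46, 1.14 and 1.12 among high-, middle- and low-level arrays. SLC2A14, a close copy of SLC2A3 looked up after these values were seen, has a transcript cluster of its own and differed by 0.61 (adjusted p = 0.003), 0.69 (0.0025) and 0.62 (0.05) under DFO, Deferasirox and OICR623, and signal from the 2 copies cannot be told apart here. For OICR623, SLC2A1 was not called without OICR623 1 (adjusted p = 0.082), and SLC2A3 was not without OICR623 1 (0.15) or OICR623 2 (0.095).

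**Figure D2:**
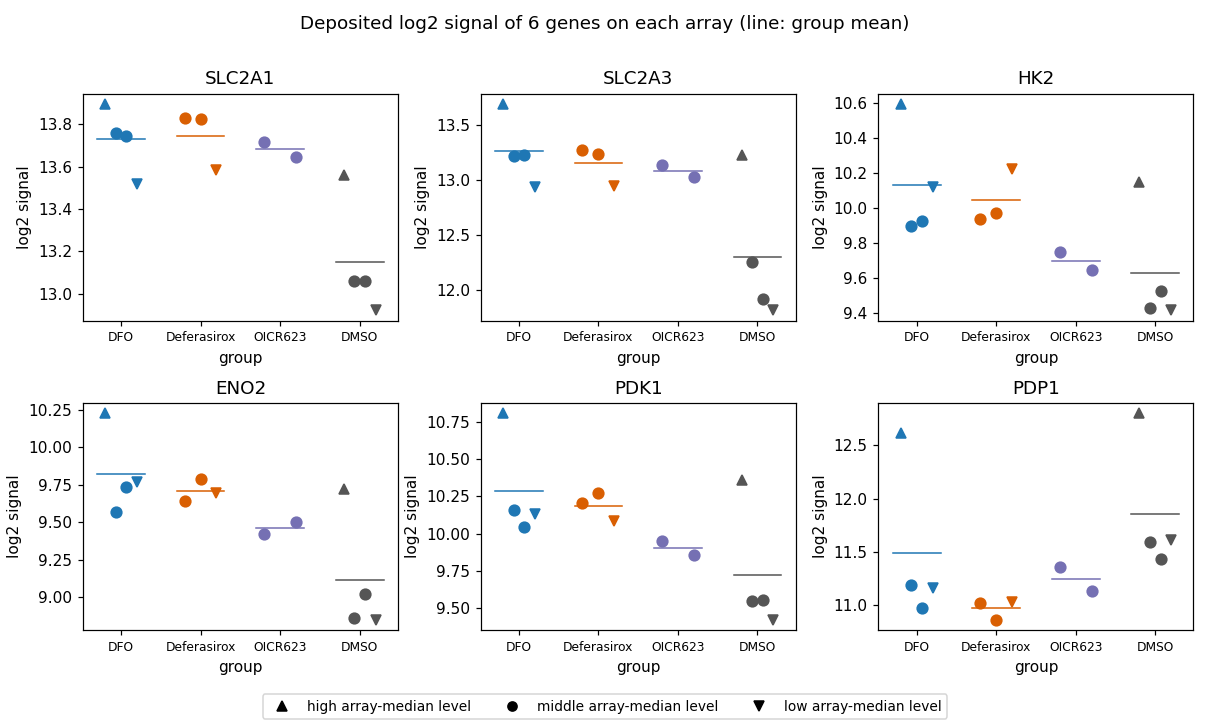
Deposited log2 signal (vertical axis) of SLC2A1, SLC2A3, HK2, ENO2, PDK1 and PDP1 on each array by group (horizontal axis), with the array-median level as marker shape and the group mean as a line. Apart from the high-level array DMSO 1, the DMSO arrays of the first 5 genes lie below every treated array; for PDP1 the DMSO arrays lie above the treated arrays except for DFO 1.

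At the first step of glycolysis HK2, the inducible hexokinase of many tumours, rose under DFO and Deferasirox, and HK1, the form most tissues use, under Deferasirox. HK2 read 10.59, 9.90, 9.93 and 10.12 in DFO, 9.94, 9.97 and 10.22 in Deferasirox, 9.75 and 9.65 in OICR623, and 10.15, 9.43, 9.53 and 9.42 in DMSO. The DFO and Deferasirox arrays of the middle and low levels were all above the DMSO arrays of those levels, and the OICR623 arrays lay between. HK2 differed by 0.50 (SE 0.06, adjusted p = 4.7e-04) under DFO and 0.58 (SE 0.07, adjusted p = 4.1e-04) under Deferasirox. Under OICR623 it stood at 0.28 (SE 0.08, adjusted p = 0.17), not called, with a 95% interval of 0.11 to 0.45. HK1 read 9.42, 8.69, 8.75 and 8.72 in DFO, 8.73, 8.82 and 8.90 in Deferasirox, 8.69 and 8.69 in OICR623, and 9.39, 8.50, 8.50 and 8.57 in DMSO, a range in which DMSO 1 and DFO 1 stand far above all others. It rose under Deferasirox, by 0.27 (SE 0.05, adjusted p = 0.008), a call lost without Deferasirox 3 (adjusted p = 0.065). Its differences of 0.16 under DFO (adjusted p = 0.082) and 0.17 under OICR623 (adjusted p = 0.29) were not called. GPI, which makes fructose 6-phosphate, differed by 0.06 under DFO, 0.06 under Deferasirox and 0.05 under OICR623, none of them called.

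Of the 3 phosphofructokinase genes, which encode the platelet, liver and muscle forms of the committing enzyme, PFKP had the highest estimates. PFKP read 10.85, 10.19, 10.22 and 10.21 in DFO, 10.33, 10.30 and 10.28 in Deferasirox, 10.15 and 10.09 in OICR623, and 10.75, 9.99, 9.88 and 9.94 in DMSO. It rose under DFO by 0.23 (SE 0.04, adjusted p = 0.012) and under Deferasirox by 0.35 (SE 0.05, adjusted p = 0.0016), and stood at 0.16 under OICR623 (adjusted p = 0.32). The DFO call was lost without DMSO 4 (adjusted p = 0.06) or DFO 4 (0.064), and in the paired fit on the 8 DFO and DMSO arrays, with replicate number as block (adjusted p = 0.066). PFKL, the liver form, read 10.20, 9.69, 9.75 and 9.71 in DFO, 9.81, 9.80 and 9.73 in Deferasirox, 9.75 and 9.68 in OICR623, and 10.23, 9.60, 9.60 and 9.53 in DMSO. It was just inside the threshold under Deferasirox, at 0.18 (SE 0.05, adjusted p = 0.049), and this call was lost without any 1 of 10 arrays, all but DMSO 1, DFO 1 and DFO 4, with adjusted p values of 0.025 to 0.2 over the 13 omissions. Under DFO and OICR623 PFKL stood at 0.10 and 0.10, not called. PFKM, the muscle form, lay at -0.04 under DFO, -0.01 under Deferasirox and -0.03 under OICR623, with no call. Among the aldolase genes, ALDOA (the main form) differed by 0.10 under DFO, 0.14 under Deferasirox and 0.07 under OICR623 and ALDOC (the brain form) by 0.17 under DFO, 0.17 under Deferasirox and 0.05 under OICR623; neither was called, the lowest adjusted p being 0.068 for ALDOA under Deferasirox and 0.078 for ALDOC under DFO. TPI1, the triose isomerase, differed by 0.06 under DFO, 0.07 under Deferasirox and 0.03 under OICR623, not called. TPI1 has 2 transcript clusters that disagree: the dimmer one averaged 7.33 in DFO, 7.02 in Deferasirox, 6.98 in OICR623 and 6.99 in DMSO, and with both averaged TPI1 was called under DFO (adjusted p = 0.015).

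In the second phase of glycolysis ENO2 rose under each compound and PGK1 under DFO and Deferasirox, while ENO1 and ENO3 were not called. ENO2, the enolase best known from neurons, read 10.23, 9.57, 9.73 and 9.77 in DFO, 9.64, 9.79 and 9.69 in Deferasirox, 9.42 and 9.50 in OICR623, and 9.72, 8.87, 9.02 and 8.85 in DMSO. All treated arrays lay above DMSO 2, DMSO 3 and DMSO 4, and DMSO 1 fell within the treated range. ENO2 rose by 0.71 (SE 0.07, adjusted p = 1.4e-04) under DFO, 0.76 (SE 0.08, adjusted p = 2.1e-04) under Deferasirox and 0.51 (SE 0.09, adjusted p = 0.032) under OICR623. The OICR623 call was lost without any 1 of 7 arrays (DMSO 2, DMSO 3, DMSO 4, Deferasirox 1, Deferasirox 3 and either OICR623 array), with adjusted p values of 0.017 to 0.19 over all omissions. ENO1, the enolase of most tissues, differed by 0.01 under DFO, 0.02 under Deferasirox and 0.02 under OICR623, and its 95% interval under DFO was -0.07 to 0.08. ENO3, the muscle form, differed by 0.04 under DFO, 0.05 under Deferasirox and 0.06 under OICR623. Its interval under DFO was wider, at -0.12 to 0.20. Among all gene signals ENO1 lay at percentile 99.9, ENO2 at 80.5 and ENO3 at 39.3. GAPDH (99.98), LDHA (99.9), LDHB (99.7), TPI1 (99.7) and PKM (99.6) also lay near the top. So did SLC2A1 (99.9) and SLC2A3 (99.6), which were called under each compound. Whether signals this high limit the size of a difference was not tested. PGK1, phosphoglycerate kinase, which makes the first ATP of the pathway, read 12.94, 12.37, 12.36 and 12.27 in DFO, 12.40, 12.42 and 12.25 in Deferasirox, 12.31 and 12.27 in OICR623, and 12.83, 12.14, 12.17 and 11.94 in DMSO. It rose by 0.21 (SE 0.04, adjusted p = 0.0092) under DFO and 0.25 (SE 0.04, adjusted p = 0.0061) under Deferasirox, and stood at 0.14 (adjusted p = 0.36) under OICR623. In the paired fit on those 8 arrays PGK1 was not called under DFO (adjusted p = 0.062). GAPDH, often used as a reference gene, differed by 0.03 under DFO, 0.02 under Deferasirox and 0.04 under OICR623 and PKM, pyruvate kinase, by 0.06 under DFO, 0.06 under Deferasirox and 0.04 under OICR623, without a call. BPGM, which diverts a triose intermediate to bisphosphoglycerate, had negative estimates of -0.10 under DFO, -0.16 under Deferasirox and -0.09 under OICR623, not called either.

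**Figure D3:**
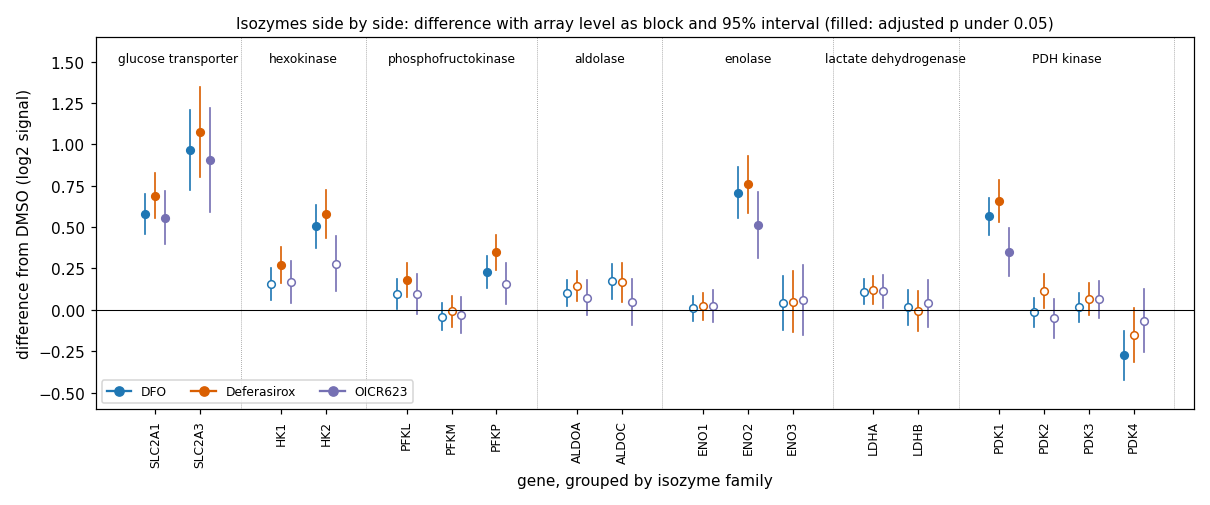
Difference from DMSO in log2 signal (vertical axis) of the members of 7 families (horizontal axis) under DFO, Deferasirox and OICR623, with the level as a block; lines are 95% intervals and filled points are called. HK2, PFKP, ENO2 and PDK1 have the highest estimates of their families under each compound, and in the lactate dehydrogenase and aldolase families no point is filled.

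For lactate, LDHA encodes the subunit that favours lactate formation and LDHB the one that favours pyruvate. LDHA, whose arrays are given because of its narrow intervals seen in the data, read 13.62, 13.47, 13.50 and 13.37 in DFO, 13.45, 13.51 and 13.37 in Deferasirox, 13.48 and 13.47 in OICR623, and 13.58, 13.36, 13.35 and 13.24 in DMSO. Its differences were 0.11 under DFO, 0.12 under Deferasirox and 0.11 under OICR623, nearly equal among the compounds, with adjusted p values of 0.11, 0.11 and 0.4, so LDHA was not called although each 95% interval lay above 0 (0.04 to 0.19 under DFO). LDHA was called under all 3 compounds where the empirical Bayes step used an intensity trend (adjusted p = 0.0025, 0.0031 and 0.044). LDHB differed by 0.01 under DFO, -0.01 under Deferasirox and 0.04 under OICR623, with no call.

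Among the genes that control pyruvate dehydrogenase, the kinase gene PDK1 rose under each compound and the phosphatase gene PDP1 fell under DFO and Deferasirox. PDK1, which switches the complex off, read 10.81, 10.16, 10.04 and 10.13 in DFO, 10.21, 10.27 and 10.08 in Deferasirox, 9.95 and 9.86 in OICR623, and 10.36, 9.55, 9.55 and 9.42 in DMSO. Every treated array was above DMSO 2, DMSO 3 and DMSO 4, and only DFO 1 was above DMSO 1. PDK1 rose by 0.56 (SE 0.05, adjusted p = 7.2e-05) under DFO and 0.66 (SE 0.06, adjusted p = 7.4e-05) under Deferasirox. The rise under OICR623, 0.35 (SE 0.07, adjusted p = 0.047), was lost without any 1 of 10 arrays, all but DMSO 1, DFO 1 and DFO 4 (adjusted p 0.037 to 0.23 over the 13 omissions). The related kinase genes PDK2 and PDK3 differed by -0.02 under DFO, 0.11 under Deferasirox and -0.05 under OICR623, and by 0.01 under DFO, 0.07 under Deferasirox and 0.06 under OICR623, and none of these was called. PDK4, a kinase gene that fasting induces, read 8.02, 6.29, 6.36 and 5.97 in DFO, 6.48, 6.52 and 5.94 in Deferasirox, 6.50 and 6.55 in OICR623, and 8.39, 6.41, 6.65 and 6.30 in DMSO, and the 2 high-level arrays stood far above all others. It fell under DFO, with a difference of -0.27 (SE 0.07, adjusted p = 0.042), a call lost without any 1 of 10 arrays (all but DMSO 2, Deferasirox 2 and Deferasirox 3, adjusted p 0.0045 to 0.18). For Deferasirox and OICR623 PDK4 stood at -0.15 and -0.07, not called.

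PDP1 encodes the phosphatase that switches pyruvate dehydrogenase back on (transcript cluster 8147344). Its log2 signal was 12.62, 11.19, 10.98 and 11.16 in DFO, 11.02, 10.86 and 11.03 in Deferasirox, 11.36 and 11.13 in OICR623, and 12.80, 11.59, 11.43 and 11.61 in DMSO. All Deferasirox and OICR623 arrays were below all DMSO arrays, while DFO 1 was above DMSO 2, DMSO 3 and DMSO 4. PDP1 fell under DFO, with a difference of -0.37 (SE 0.07, adjusted p = 0.016), and under Deferasirox, -0.54 (SE 0.08, adjusted p = 0.0031), and stood at -0.24 (SE 0.10, adjusted p = 0.41) under OICR623. The DFO call was lost without DMSO 2 (adjusted p = 0.055), DMSO 4 (0.079), DFO 3 (0.052) or DFO 4 (0.074). The genes of the catalytic subunits differed by 0.03 under DFO, 0.04 under Deferasirox and 0.04 under OICR623 for PDHA1, and by -0.03 under DFO, 0.00 under Deferasirox and 0.03 under OICR623 for PDHB, and were not called. MPC1 and MPC2, which form the carrier that brings pyruvate into the mitochondrion, differed by -0.03 under DFO, 0.05 under Deferasirox and 0.02 under OICR623, and by -0.00 under DFO, 0.02 under Deferasirox and 0.01 under OICR623, also without a call. PGM1, which links glucose 6-phosphate to glycogen, stood at 0.14 under DFO, 0.23 under Deferasirox and 0.09 under OICR623, with its lowest adjusted p, 0.054, under Deferasirox.

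The called members had 1 sign within the levels. For all 9 called under DFO and all 10 called under Deferasirox, the difference had the same sign in each level that holds both groups. OICR623 was measured in the middle level alone. As the calls come from a fit that combines these same differences, 1 sign is no separate support. Of all 30 members, 18 had 1 sign over the high, middle and low levels under DFO, and 25 over the middle and low levels under Deferasirox. A difference of exactly 0 was counted as another sign. Under DFO this alone kept out TPI1, ENO3, PKM and PDHB, whose middle and low differences had the same sign. The share of all genes with 1 sign was not counted. The DFO difference was smaller in size in the high level than in both other levels for 7 of the 9 called genes, among them SLC2A1 (0.34, 0.69 and 0.59), PFKP (0.10, 0.27 and 0.28) and PGK1 (0.11, 0.21 and 0.32). HK2 (0.44, 0.43 and 0.70) and PDK4 (-0.37, -0.20 and -0.33) were the other 2. The share of all genes with a smaller high-level difference was not counted, so 7 of 9 is not shown to be particular to these genes. DMSO 1 and DFO 1 held equal values in 26.4% of all rows. With DMSO 1 and DFO 1 both left out, the estimates under DFO were 1.13 for SLC2A3, 0.66 for SLC2A1, 0.78 for ENO2 and 0.60 for PDK1, and 8 of the 9 calls held, PDK4 being the exception. Over all arrays regardless of level, 0 members lay wholly above or below DMSO under DFO (0.326% of all genes above and 0.245% below). Under Deferasirox SLC2A1 lay wholly above and PDP1 wholly below (0.451% and 4.62% of all genes), as they did under OICR623 (1.11% and 5%). Among middle-level arrays alone, 17 members lay wholly above and 2 wholly below DMSO under DFO (19.9% and 18.9% of all genes), 20 and 2 under Deferasirox (20.9% and 20.8%), and 17 and 1 under OICR623 (17.1% and 17.5%).

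**Figure D4:**
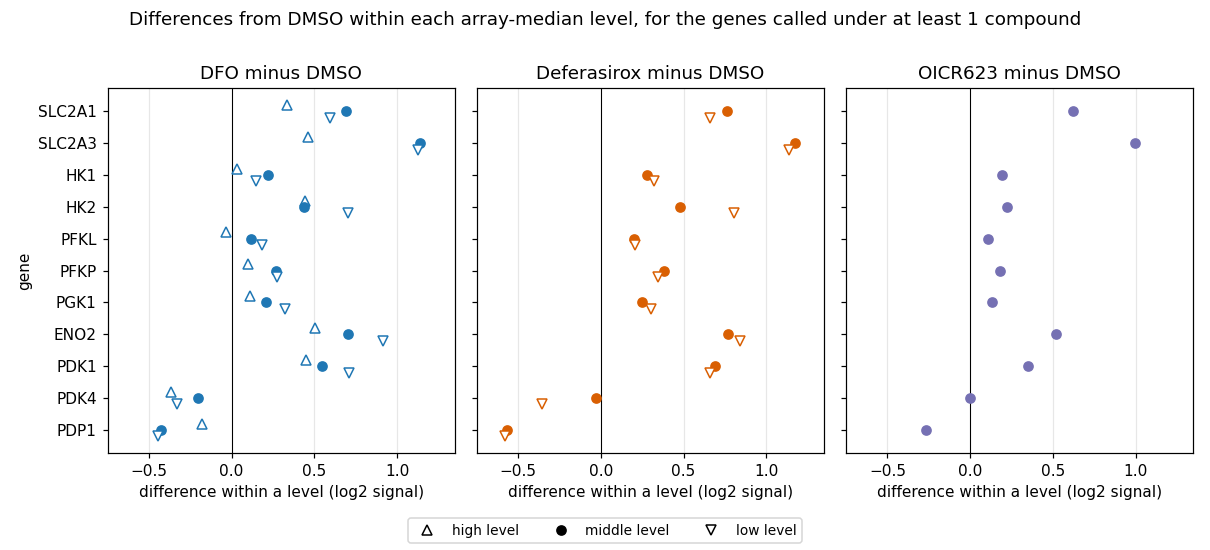
Difference from DMSO within each array-median level, in log2 signal (horizontal axis), for the 11 genes called under at least 1 compound (vertical axis); marker shape gives the level. Under DFO the high-level difference of SLC2A3 (0.46) lies left of the middle-level one (1.14), and the points of PDP1 lie left of 0 in every panel.

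Neighbouring pathways were read from lists outside the 34 genes. Of 18 other glycolytic isozymes and glucose transporters, 10 genes of pyruvate use, 7 of gluconeogenesis, 9 of the pentose phosphate pathway, 14 of glycogen metabolism and 16 of the citric acid cycle, 0 were called under DFO and 0 under OICR623. Under Deferasirox the 1 gene called was IDH2, a mitochondrial isocitrate dehydrogenase, at 0.24 (SE 0.06, adjusted p = 0.037). Of all genes 4.6% were called under DFO, 5.84% under Deferasirox and 0.734% under OICR623. With so low a share, 0 calls under OICR623 do not set these lists apart. The median difference of these lists lay between -0.05 and 0.05 in every comparison with DMSO. GBE1, the glycogen branching enzyme, was picked out after its values were seen and had differences of 0.30 under DFO (adjusted p = 0.1), 0.37 under Deferasirox (adjusted p = 0.06) and 0.27 under OICR623 (adjusted p = 0.46), which did not pass.

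Between the compounds, whose labelled doses differ, 0 of the 30 members were called by limma in any of the 3 pairs, neither higher nor lower. Of all genes 0.0435% were called for Deferasirox against DFO (0.0272% higher and 0.0163% lower), 0.168% for OICR623 against DFO (0.158% and 0.0109%) and 0.0869% for OICR623 against Deferasirox (0.0598% and 0.0272%). At an unadjusted p under 0.05 the counts of members were 3, 3 and 7 of 30, beside 10%, 5.67% and 8.54% of all genes. PDK1 had the lowest p of the members for OICR623 against Deferasirox, -0.31 (95% interval -0.46 to -0.16, adjusted p = 0.16), and for OICR623 against DFO, -0.22 (95% interval -0.36 to -0.07, adjusted p = 0.61). HK2 followed in both, with -0.30 (95% interval -0.47 to -0.12, adjusted p = 0.27) and -0.22 (95% interval -0.39 to -0.06, adjusted p = 0.72). For SLC2A1 the difference of OICR623 and DFO was -0.02 (95% interval -0.18 to 0.14, adjusted p = 1), and for SLC2A3 that of Deferasirox and DFO was 0.11 (95% interval -0.16 to 0.38, adjusted p = 0.83). These intervals include differences of either sign for the transporters and do not show that the compounds act alike.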

How the data were processed

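RNA of SW480 cells was hybridised to 13 arrays (Affymetrix Human Gene 1.0 ST). The values are log2 signals as deposited by the authors, and GCRMA and limma are named, per the submitters' processing notes, with no version or order. No other normalization was applied. Of 32321 transcript clusters, 19158 carry 1 gene symbol, 1388 several and 11775 none in the platform annotation. Symbols were updated through Entrez IDs for 19128, and the cluster with the highest mean stood for each of 18404 genes. limma 3.58.1 (R 4.3.3) fitted group and array-median level, with levels split at gaps over 0.05, on all 13 arrays (7 residual degrees of freedom), with empirical Bayes and Benjamini-Hochberg adjustment. The number of arrays limits the precision.

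Same-numbered DFO and DMSO arrays deviated together over genes (r = 0.945, 0.662, 0.738 and 0.788), which meets the criterion set for pairs. In each of these pairs both arrays share a level, and the level was not removed first, so r includes the level shift. The DFO values reported come from the fit with level as block, which does not separate pairs 2 and 3 of the middle level, and a paired fit on the 8 DFO and DMSO arrays was added after seeing the data. Its p stands beside the 2 calls it ends (PFKP and PGK1). For Deferasirox and OICR623 against DMSO the correlations ran from -0.324 to 0.333. There Deferasirox 1, Deferasirox 3 and OICR623 1 lay in another level than the DMSO array of the same number. These values therefore do not show that pairing is particular to DFO. The test was also run on data simulated from its own model with independent noise, without the equal values or pairs seen here. Of 50 genes changed by 0.5 on the log2 scale, 90% were recovered under DFO, 84% under Deferasirox and 80% under OICR623. Unchanged genes called numbered 9, 11 and 8. These rates hold where the model is true, which the simulation cannot check for these data. The members and gene lists were chosen with earlier results of these data known. By the rule for named genes, every listed member is accounted for, array values are given for members called under at least 1 compound, and up to 4 called genes are named per neighbouring list. LDHA array values, GBE1 and SLC2A14 fall outside it and were chosen after values were seen. Alternatives were other blocks, centring, quantile normalization, subsets of arrays, a filter on dim genes, the mean of all clusters of a gene, an intensity trend and leaving out each array.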

Additional observations from a re-analysis of the deposited data

Results flagged for a closer look

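In 18 of 60 groups of 4 arrays tested with Dixon's criterion, 1 array lay far from the other 3. The array was DFO 1 in all 9 DFO groups, with log2 signals of 9.42 for HK1, 10.20 for PFKL, 10.85 for PFKP, 12.94 for PGK1, 10.81 for PDK1, 9.76 for PDHB, 12.62 for PDP1, 9.80 for MPC1 and 10.30 for PGM1. It was DMSO 1 in all 9 DMSO groups, with log2 signals of 9.39 for HK1, 10.15 for HK2, 10.23 for PFKL, 10.75 for PFKP, 10.36 for PDK1, 8.39 for PDK4, 9.76 for PDHB, 12.80 for PDP1 and 9.84 for MPC1. DFO 1 and DMSO 1 are the 2 arrays of the high level, so array and level cannot be told apart here.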

How the results depend on the processing

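With no block, 0 members were called higher and 0 lower under DFO, Deferasirox and OICR623. Of the members not called in the main fit, 12 of 20 under Deferasirox, 13 of 26 under OICR623 and 0 of 21 under DFO then changed sign. With the replicate block in place of the level, 1 was higher and 0 lower under DFO, 0 and 0 under Deferasirox, and 0 higher under OICR623. Of the called members, PFKL (-0.0187) and PGK1 (-0.00854) under Deferasirox and PDK1 (-0.00227) under OICR623 changed the sign of their estimates. So did most members not called in the main fit, 15 of 20 under Deferasirox and 20 of 26 under OICR623, but 0 of 21 under DFO. In that setting the median difference of all genes was -0.239 under Deferasirox and -0.271 under OICR623. That block sets the high-level DMSO 1 beside the middle-level Deferasirox 1 and OICR623 1, and the low-level Deferasirox 3 beside the middle-level DMSO 3. With each array centred on its median and no block, 5 were higher and 0 lower under Deferasirox, 5 and 0 under DFO, and 1 higher under OICR623. Middle-level arrays alone gave 5 higher and 0 lower under DFO, 6 and 0 under Deferasirox, and 2 higher under OICR623. In both of these settings PFKP and PGK1 were not called under DFO. Under DFO, 1 was lower with the level as a random block and 1 without the high-level arrays, a setting chosen after seeing the data. An intensity trend gave 1 call for OICR623 against Deferasirox. The cause of these changes was not tested. Leaving out 1 array at a time gave 6 to 8 higher and 0 to 2 lower under DFO, 7 to 10 higher and 1 lower under Deferasirox, and 0 to 4 higher under OICR623. The fit on the 8 DFO and DMSO arrays with the replicate number as a block, also added after seeing the data, kept 7 of the 9 DFO calls. Quantile normalization with the level as block, the mean of all clusters of a gene and leaving out the dimmest genes each kept all calls under the 3 compounds. Without the dimmest genes 2 further members were called under DFO, 2 under Deferasirox and 0 under OICR623 (7.82%, 9.86% and 1.47% of the genes kept were called). The intensity trend added 3, 3 and 2 members (6.55%, 8.23% and 1.84% of all genes called). OICR623 has 2 arrays, and in simulated data its comparison recovered 32% of genes changed by 0.25 on the log2 scale.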
